A study of Homo sapiens with 6 samples.

Results

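The genes described are 10 detoxification enzymes and helpers that the transcription factor NRF2 is known to control: NQO1, HMOX1, BLVRB, OSGIN1, AKR1B10, AKR1C1, AKR1C2, AKR1C3, EPHX1 and ABCC1. They were taken by name from the 29436 gene symbols of the count table, and all 10 were found there. The cells were hemogenic endothelium, the endothelium that gives rise to blood, grown from the human embryonic stem cell line H1 on AGM-S3 stroma. The untreated group (3 libraries) received no agent, and the lipoic acid group (3 libraries) had 100 µg/ml alpha lipoic acid in the inducing medium. On day 8, CD34+ CD43- KDR+ CD144+ cells of both groups were sorted, and each library was sequenced from the amplified polyA cDNA of 1000 of them. A single cell line was used, and the labels do not say whether the 3 libraries of a group came from separate cultures, so the p-values measure only the spread between these libraries.

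NRF2 is held at a low level in resting cells by KEAP1, an adaptor that hands it to a ubiquitin ligase. Electrophiles and oxidants modify KEAP1, and NRF2 then pairs with small MAF proteins and binds antioxidant response elements near its targets. NQO1 and HMOX1 are its best-known targets, and in human cells aldo-keto reductases of the AKR1 family are among the most inducible. Alpha lipoic acid is a cyclic disulfide, used as an antioxidant, that cells reduce to a dithiol.

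Libraries held 30041494 to 41351951 counts, and levels are given as CPM, counts relative to a library size scaled by the trimmed mean of M values (TMM). Even numbers made up 99.13% to 99.34% of the nonzero counts of 4 libraries (untreated replicate 1 and all lipoic acid replicates), but 52.01% and 51.97% of those of untreated replicates 2 and 3. This trait is partly confounded with treatment, since all lipoic acid libraries have it and only untreated replicate 1 does among the untreated. Fits with even counts halved and fits to those 4 libraries alone are given beside the results. Neither can give the part of this trait in them: halving only rescales counts, and the 4 libraries hold a single untreated one. Endothelial identity markers were abundant in every library, with a summed level of 12440 to 12510 CPM untreated and 10360 to 10680 CPM with lipoic acid. Of these 11 markers 2 rose and 7 fell, against 24.2% and 23.3% of all tested genes. These are bulk samples, in which fewer cells of a type and less RNA per cell cannot be told apart.

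Start-site sequences of 4 of the genes are shown because NQO1 and OSGIN1 had the highest level and the largest fold among the 10, and because AKR1C1 and AKR1C2 are near copies of each other. Of the 7 genes with a start window, these are also the 4 that held a match to TGAGNNNGC. Each run is the 250 bases before a RefSeq start (GRCh38.p14), read 5′ to 3′ on the strand of the gene. Capitals mark a match to TGAGNNNGC, which in all 4 lies on the opposite strand and so appears as its reverse complement. The runs lie at chr16:69726561-69726810 (minus strand) for NQO1, chr16:83952990-83953239 (plus strand) for OSGIN1, chr10:4963165-4963414 (plus strand) for AKR1C1 and chr10:5003858-5004107 (minus strand) for AKR1C2.
NQO1: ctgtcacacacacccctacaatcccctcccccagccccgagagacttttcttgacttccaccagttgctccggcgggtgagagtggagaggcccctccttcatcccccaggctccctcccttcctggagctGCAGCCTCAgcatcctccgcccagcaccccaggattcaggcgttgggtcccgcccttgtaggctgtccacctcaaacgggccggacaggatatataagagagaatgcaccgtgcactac
OSGIN1: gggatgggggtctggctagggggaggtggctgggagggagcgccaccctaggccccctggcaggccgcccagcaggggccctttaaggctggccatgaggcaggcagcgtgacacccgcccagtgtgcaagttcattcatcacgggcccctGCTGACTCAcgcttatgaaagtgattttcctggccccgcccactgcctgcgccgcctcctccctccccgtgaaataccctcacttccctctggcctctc
AKR1C1: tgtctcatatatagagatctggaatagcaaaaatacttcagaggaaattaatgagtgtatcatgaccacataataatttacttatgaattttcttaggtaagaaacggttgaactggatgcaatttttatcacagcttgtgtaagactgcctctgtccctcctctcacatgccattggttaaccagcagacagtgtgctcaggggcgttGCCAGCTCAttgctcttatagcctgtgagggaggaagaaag
AKR1C2: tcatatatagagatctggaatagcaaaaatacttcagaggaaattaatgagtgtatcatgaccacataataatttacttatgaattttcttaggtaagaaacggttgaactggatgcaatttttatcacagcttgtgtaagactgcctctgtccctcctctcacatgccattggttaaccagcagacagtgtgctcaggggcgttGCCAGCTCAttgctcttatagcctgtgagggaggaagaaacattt

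Windows reaching from 250 bases before to 50 bases after a start were found for 7 of the 10 genes (10 windows), and were searched on both strands for 2 forms of the core of the antioxidant response element. The form TGACNNNGC was found in 1 of the 10 windows, a second start of EPHX1, and in 13.3% of all 35116 windows. The form TGAGNNNGC was found in 4 windows, those of NQO1, OSGIN1, AKR1C1 and AKR1C2, and in 18.3% of all windows. In OSGIN1 the match lies 99 to 91 bases before the start and contains TGAGTCA, the site of AP-1 factors, which 4.9% of all windows hold. These matches are descriptions of letters, and no binding was measured. Over the 292 aligned bases of their windows, AKR1C1 and AKR1C2 were 98.6% identical, whereas AKR1C1 and AKR1C3 were 78.0% identical over 291 aligned bases.

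Of the 10 genes 7 rose with lipoic acid, none fell, 2 did not pass and EPHX1 was too low to be tested. A gene was said to rise or fall when the Benjamini-Hochberg adjusted p of the edgeR quasi-likelihood test, fitted across 13780 genes, was under 0.05. Over all tested genes 47.4% passed, of which 24.2% rose and 23.3% fell (as shares of all tested). By at least 2-fold, 5 of the 10 rose (OSGIN1, AKR1B10, HMOX1, NQO1 and AKR1C1), against 7.92% of all tested genes. In 8 of the 10 every lipoic acid library lay above every untreated one, against 30.4% of all tested genes. The count of falls was also 0 at an unadjusted p under 0.05, in DESeq2 and in limma voom, and the count of rises was 8 in each of these. The median log2 fold change of the 9 tested genes was 1.38, and that of all tested genes -0.01. AKR1B10 and AKR1C2 passed the filter on low counts only through the lipoic acid libraries, so this count and median are given as a description.

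**Figure D1:**
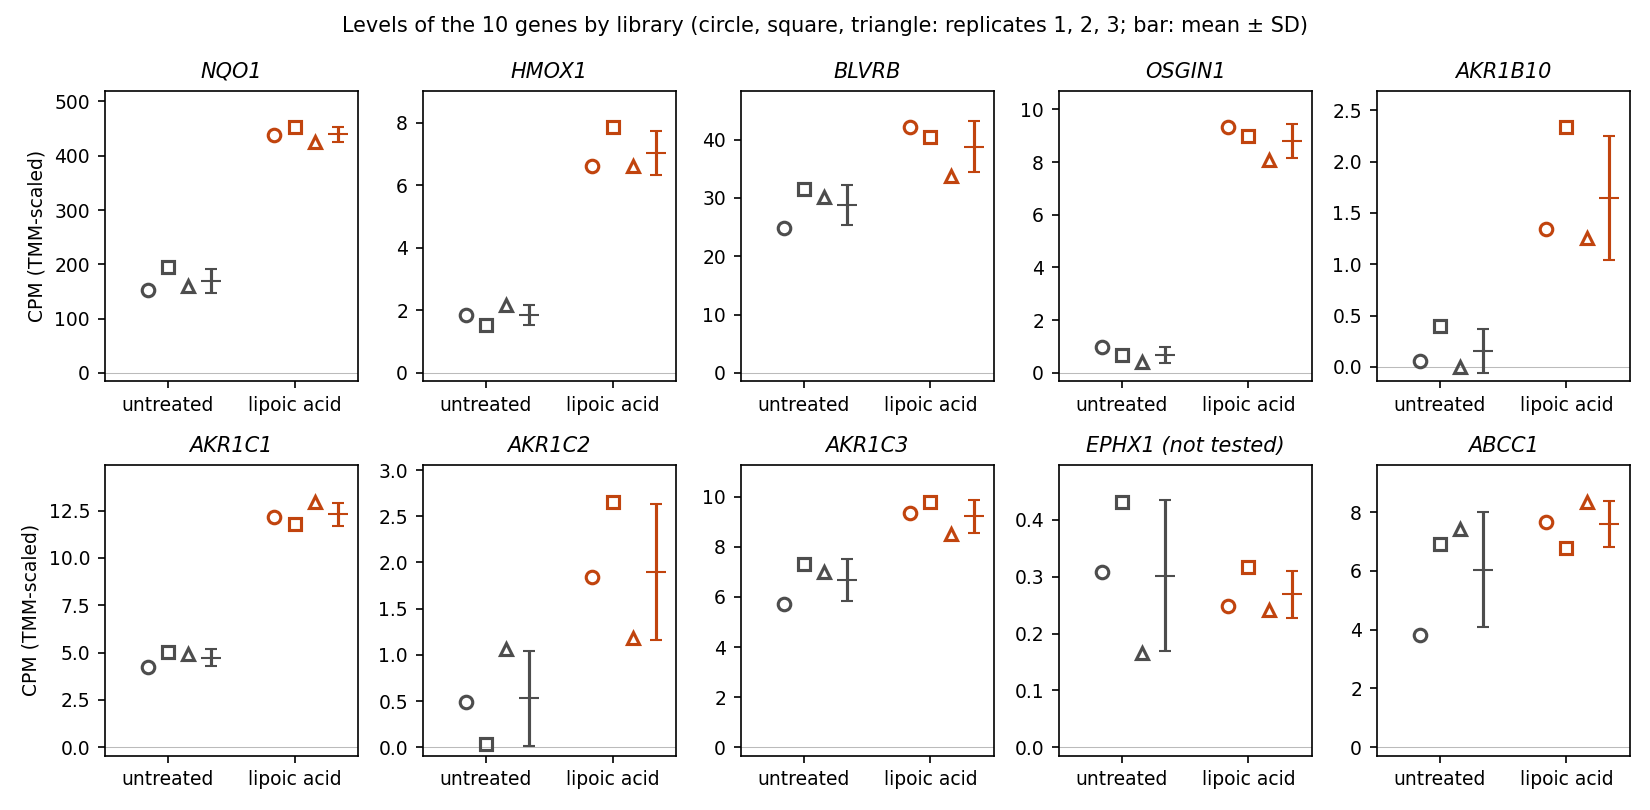
TMM-scaled CPM (vertical axes, linear, differing between panels) of the 10 genes in each of the 3 untreated (grey) and 3 lipoic acid (red) libraries, with the mean ± SD beside the points. The groups overlap for EPHX1 and ABCC1, and every lipoic acid point of the other 8 genes lies above all untreated points.

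NQO1 (chromosome 16, 69706996 to 69726951, minus strand, GRCh38), the quinone reductase that turns quinones into hydroquinones without a radical step, was the most abundant of the 10. Its level was 153, 194 and 160 CPM in untreated replicates 1 to 3 and 439, 452 and 426 CPM in lipoic acid replicates 1 to 3. The lipoic acid libraries lay close together and far above the untreated ones. The mean rose from 169 ± 22.3 to 439 ± 13.2 CPM (SD, n = 3 each), a 2.60-fold rise (log2 1.38, SE 0.09, edgeR adjusted p = 2.27e-06). An antisense gene covers 0.177 of its exonic length, and whether strand was used in counting is not given in the sources used here.

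HMOX1 (chromosome 22, 35380361 to 35394214), the inducible heme oxygenase that opens heme into biliverdin, carbon monoxide and iron, was a low transcript in both groups. It stood at 1.85, 1.53 and 2.16 CPM untreated and at 6.63, 7.85 and 6.62 CPM with lipoic acid. The groups were well apart, with lipoic acid replicate 2 the highest. HMOX1 rose 3.80-fold, from 1.85 ± 0.316 to 7.03 ± 0.707 CPM (log2 1.93, SE 0.22, edgeR adjusted p = 9.71e-05).

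BLVRB (chromosome 19, 40447765 to 40465840), the biliverdin and flavin reductase that acts after heme oxygenase, rose far less. Its values were 24.9, 31.5 and 30.1 CPM untreated and 42.1, 40.4 and 33.8 CPM with lipoic acid. The groups did not overlap, although lipoic acid replicate 3 was only slightly above untreated replicate 2. BLVRB rose 1.35-fold, from 28.8 ± 3.49 to 38.8 ± 4.39 CPM (log2 0.43, SE 0.11, edgeR adjusted p = 0.0106). Within each library the ratio of HMOX1 to BLVRB counts, the first enzyme of heme breakdown over a later one, was 0.0649 ± 0.0142 untreated and 0.183 ± 0.0218 with lipoic acid, and the groups of ratios did not overlap.

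OSGIN1 (chromosome 16, 83948282 to 83966332), a stress-induced inhibitor of growth, had the largest fold among the 10. It lay at 0.984, 0.665 and 0.399 CPM untreated and at 9.32, 8.99 and 8.07 CPM with lipoic acid. Even the lowest lipoic acid library was far above the highest untreated one. The mean rose 12.7-fold, from 0.683 ± 0.293 to 8.79 ± 0.644 CPM (log2 3.67, SE 0.30, edgeR adjusted p = 1.26e-05), a fold that 1.79% of tested genes exceeded. Its untreated counts were 32, 20 and 12, so the lower level rests on few reads. On the same strand another annotated gene shares 0.139 of the exonic length of OSGIN1.

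EPHX1 (chromosome 1, 225810092 to 225845563), the microsomal epoxide hydrolase, was near the limit of detection in both groups. It had 10, 13 and 5 counts in the untreated and 10 counts in each of the lipoic acid libraries, below the filter for testing. The ratio of lipoic acid to untreated counts, even counts halved, was 0.881 with a 95% exact binomial interval of 0.428 to 1.76, which covers counting error alone. Without the filter edgeR gave a log2 fold change of -0.17 for EPHX1 (adjusted p = 0.881).

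ABCC1 (chromosome 16, 15949577 to 16143074), the pump that exports glutathione conjugates, did not pass. Its level was 3.81, 6.92 and 7.41 CPM untreated and 7.67, 6.77 and 8.36 CPM with lipoic acid. The groups overlapped, and untreated replicate 1 stood below the other untreated libraries. The log2 fold change of ABCC1 was 0.33 with an SE of 0.24 (edgeR adjusted p = 0.283). Among the 4 libraries of even counts, where only untreated replicate 1 stands for its group, assumed to spread as the lipoic acid libraries do, it was 1.00 (adjusted p = 0.00717), and without that library 0.10.

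The aldo-keto reductases reduce aldehydes, ketones and steroids with NADPH, and the AKR1C genes lie side by side on chromosome 10. AKR1C1 (4963253 to 4983283), known for reducing progesterone, stood at 4.24, 5.05 and 4.92 CPM untreated and at 12.2, 11.8 and 13.0 CPM with lipoic acid. The groups were far apart relative to their spread. AKR1C1 rose 2.60-fold, from 4.74 ± 0.434 to 12.3 ± 0.617 CPM (log2 1.38, SE 0.15, edgeR adjusted p = 7.7e-05).

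AKR1C3 (5035354 to 5107686), which reduces androgen precursors and prostaglandins, was slightly the higher of the pair in untreated libraries. Its values were 5.72, 7.32 and 7.02 CPM untreated and 9.36, 9.81 and 8.51 CPM with lipoic acid, without overlap. AKR1C3 rose 1.38-fold, from 6.68 ± 0.847 to 9.23 ± 0.662 CPM (log2 0.47, SE 0.16, edgeR adjusted p = 0.037). This call was lost when any library other than untreated replicate 2 was left out (adjusted p 0.0595 to 0.0973). The ratio of AKR1C1 to AKR1C3 counts within a library was 0.742, 0.691 and 0.701 untreated and 1.30, 1.20 and 1.53 with lipoic acid, higher in every lipoic acid library. These are ratios of counts, not of levels per length: AKR1C1 has 8765 and AKR1C3 4532 annotated exonic bases.

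AKR1C2 (4987400 to 5018031), which reduces dihydrotestosterone, scattered widely. It stood at 0.492, 0.0333 and 1.06 CPM untreated and at 1.84, 2.66 and 1.18 CPM with lipoic acid, and lipoic acid replicate 3 was only just above untreated replicate 3. The log2 fold change of AKR1C2 was 1.83 with an SE of 0.73 (edgeR adjusted p = 0.0628). It passed in 7 of 16 other settings, DESeq2 among them (adjusted p = 0.0259), and ranged from 2.43-fold without untreated replicate 2 to 7.03-fold without untreated replicate 3.

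Reads of these genes may be split between copies. The coding sequences of AKR1C1 and AKR1C2 differ at 19 of 969 bases (98.0% identity), and those of AKR1C1 and AKR1C3 at 79. Of all stretches of 100 bases in annotated AKR1C2 transcripts 23.1% also occur in a transcript of another gene, chiefly AKR1C1, against 16.7% for AKR1C1 and 1.75% for AKR1C3. How reads with several alignments were counted is not given in the sources used here, so the separate values of AKR1C1 and AKR1C2 are uncertain. Their sum with AKR1C3 does not depend on how reads were divided among the 3 genes. It would change if shared reads were dropped or counted for each gene. AKR1C4, outside the sum, also shares stretches with AKR1C1 and AKR1C3. The summed level was 10.5, 12.4 and 13.0 CPM untreated and 23.4, 24.2 and 22.7 CPM with lipoic acid, a 1.96-fold difference of means (exact two-sided permutation p = 0.1, the smallest that 3 against 3 libraries can give).

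**Figure D2:**
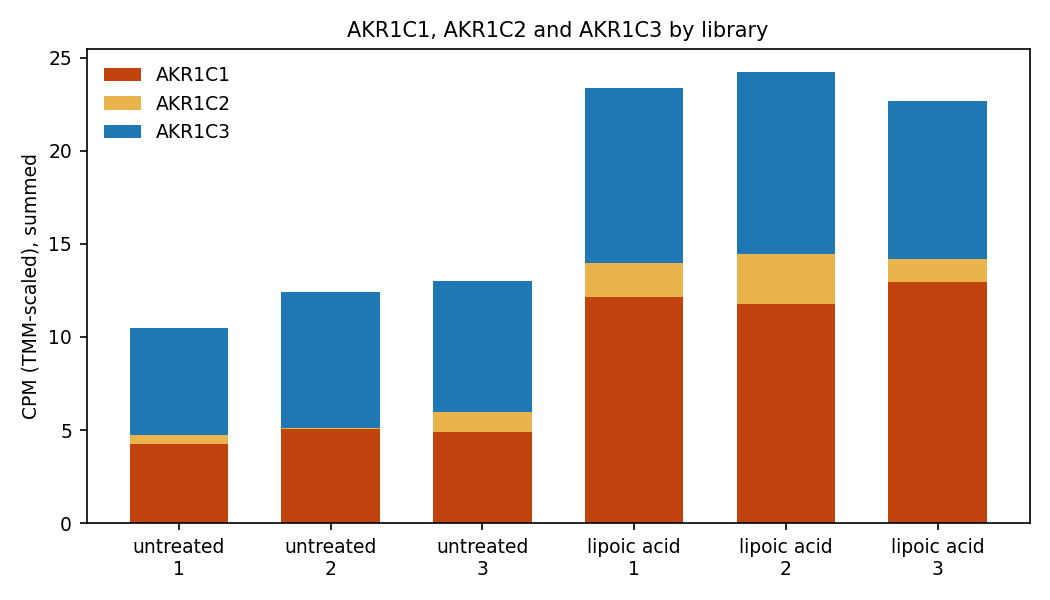
Stacked TMM-scaled CPM (vertical axis, from 0) of AKR1C1, AKR1C2 and AKR1C3 in each library. The stacks reach 10.5 to 13.0 CPM in untreated and 22.7 to 24.2 CPM in lipoic acid libraries, and the AKR1C1 part is 37.9% to 40.8% of the stack untreated and 48.6% to 57.2% with lipoic acid.

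AKR1B10 (chromosome 7, 134527592 to 134541408), which reduces retinal and lipid aldehydes, was barely present without lipoic acid. Untreated libraries held 2, 12 and 0 counts and lipoic acid libraries 54, 74 and 52. Most of the untreated counts came from replicate 2 alone. AKR1B10 passed the filter on low counts only through the lipoic acid libraries, so its test is given as a description. The fitted rise of AKR1B10 was 10.6-fold, from 0.154 ± 0.215 to 1.65 ± 0.603 CPM (log2 3.40, SE 0.83, edgeR adjusted p = 0.00743). Without untreated replicate 2 the fit gave 46.5-fold, which rests on untreated counts of 2 and 0 and is no bound. With even counts halved, the lipoic acid to untreated count ratio of AKR1B10 was 9.35, with a 95% exact binomial interval of 5.20 to 18.2. AKR1B15, the gene next to it, whose coding sequence is 93.5% identical, had 30, 26 and 17 counts untreated and 6, 0 and 6 with lipoic acid. AKR1B15 passed the filter on low counts only through the untreated libraries, so its lower call (edgeR adjusted p = 0.0102) is also given as a description. That call was lost in the 4 libraries of even counts. AKR1B1, the abundant aldose reductase of the same stretch, was at 148 ± 3.42 and 151 ± 9.63 CPM (adjusted p = 0.71).

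**Figure D3:**
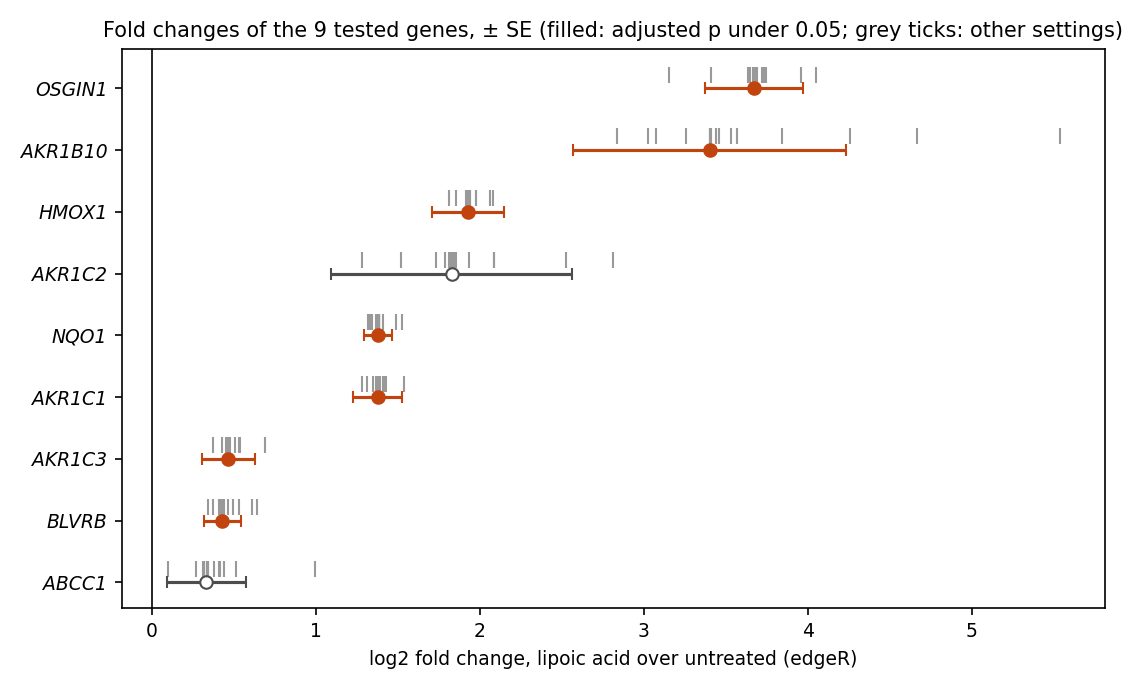
Fitted log2 fold change of the 9 tested genes (horizontal axis, lipoic acid over untreated), with bars of 1 SE, filled where the adjusted p was under 0.05. Grey ticks are the same gene under 16 other settings, which spread most for AKR1B10 (2.84 to 5.54) and AKR1C2 (1.28 to 2.81) and little for NQO1 (1.32 to 1.53).

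The order of the genes by level changed with lipoic acid. On the scale of CPM per kilobase of annotated exon, NQO1 led in both groups (51.9 ± 6.85 untreated, 135 ± 4.04 with lipoic acid) and BLVRB followed (17.1 ± 2.06 and 23.0 ± 2.60). Untreated cells then had AKR1C3 (1.47), ABCC1 (0.798), HMOX1 (0.767), AKR1C1 (0.541), OSGIN1 (0.197), EPHX1 (0.120), AKR1B10 (0.0880) and AKR1C2 (0.0820). Of those neighbours, ABCC1 and HMOX1 overlapped, as did each adjoining pair from OSGIN1 down to AKR1C2. With lipoic acid the order after BLVRB was HMOX1 (2.92), OSGIN1 (2.54), AKR1C3 (2.04), AKR1C1 (1.40), ABCC1 (1.00), AKR1B10 (0.945), AKR1C2 (0.293) and EPHX1 (0.107), in which ABCC1 and AKR1B10 overlapped. This order depends on the annotation, since the divisor is every annotated exonic base of a gene, 8765 for AKR1C1 and 2405 for HMOX1. In CPM without that divisor, HMOX1 (7.03) lay below AKR1C1 (12.3), AKR1C3 (9.23), OSGIN1 (8.79) and ABCC1 (7.60) with lipoic acid. NQO1 alone made up 71.1% of the summed per-kilobase level of the 10 genes untreated and 79.8% with lipoic acid.

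Relatives of the 10 genes carry out like reactions. Of 19 such relatives tested, 5 rose and 3 fell, while 11 did not pass (median log2 fold change 0.00), against 24.2% and 23.3% of all tested genes. Of the 5 that rose, AKR1C4, AKR1D1 and ABCC3 passed the filter on low counts only through the lipoic acid libraries. AKR1B15, which fell, passed it only through the untreated ones, so these counts and the median are a description. In DESeq2 and in limma voom 5 rose and 2 fell. NQO2, the quinone reductase that uses other cosubstrates, was at 25.8 ± 1.43 and 25.7 ± 1.59 CPM (adjusted p = 0.949), and AKR1A1, the general aldehyde reductase, at 131 ± 7.71 and 131 ± 2.13 CPM (adjusted p = 0.976). OSGIN2 was at 17.0 ± 0.521 and 14.7 ± 0.892 CPM (adjusted p = 0.122), EPHX2, the soluble epoxide hydrolase, at 5.36 ± 2.05 and 4.78 ± 0.377 CPM (adjusted p = 0.64), and ABCC5, an exporter of cyclic nucleotides, at 50.7 ± 12.6 and 60.6 ± 6.48 CPM (adjusted p = 0.209).

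BLVRA, the main biliverdin reductase, rose 1.45-fold, from 5.36 ± 0.765 to 7.79 ± 0.642 CPM (edgeR adjusted p = 0.0297). The BLVRA call was lost without untreated replicate 1 or 3 or lipoic acid replicate 2 or 3 (adjusted p up to 0.102). HMOX2, the constitutive heme oxygenase, was called lower (adjusted p = 0.0345), but its untreated counts were 64, 147 and 524 against 50, 108 and 60 with lipoic acid, and the groups overlapped. The HMOX2 call was lost in 8 of 16 other settings: DESeq2, limma voom, the replicate block, the removal of the GC and length trend, the 4 libraries of even counts (log2 fold change 0.04), and on leaving out untreated replicate 3 or lipoic acid replicate 1 or 3.

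Ratios of counts within a library do not depend on scaling, and 8 such pairs were tested by two-sided exact permutation, which cannot give a p below 0.1 here (0.133 after adjustment over the 8 pairs). NQO1 over NQO2 was 6.53 ± 0.634 untreated and 17.2 ± 1.03 with lipoic acid. OSGIN1 over OSGIN2 was 0.0404 ± 0.0185 and 0.600 ± 0.0750, and AKR1C1 over AKR1A1 was 0.0363 ± 0.00328 and 0.0940 ± 0.00449. These ratios, AKR1C1 over AKR1C3, HMOX1 over BLVRB and AKR1B10 over AKR1B1 were higher in every lipoic acid library than in any untreated one, at the smallest possible p. BLVRB over BLVRA overlapped between groups (5.39 ± 0.345 and 5.03 ± 0.944, permutation p = 0.6), as did ABCC1 over ABCC4 (0.428 ± 0.177 and 0.224 ± 0.0259, permutation p = 0.3).

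**Figure D4:**
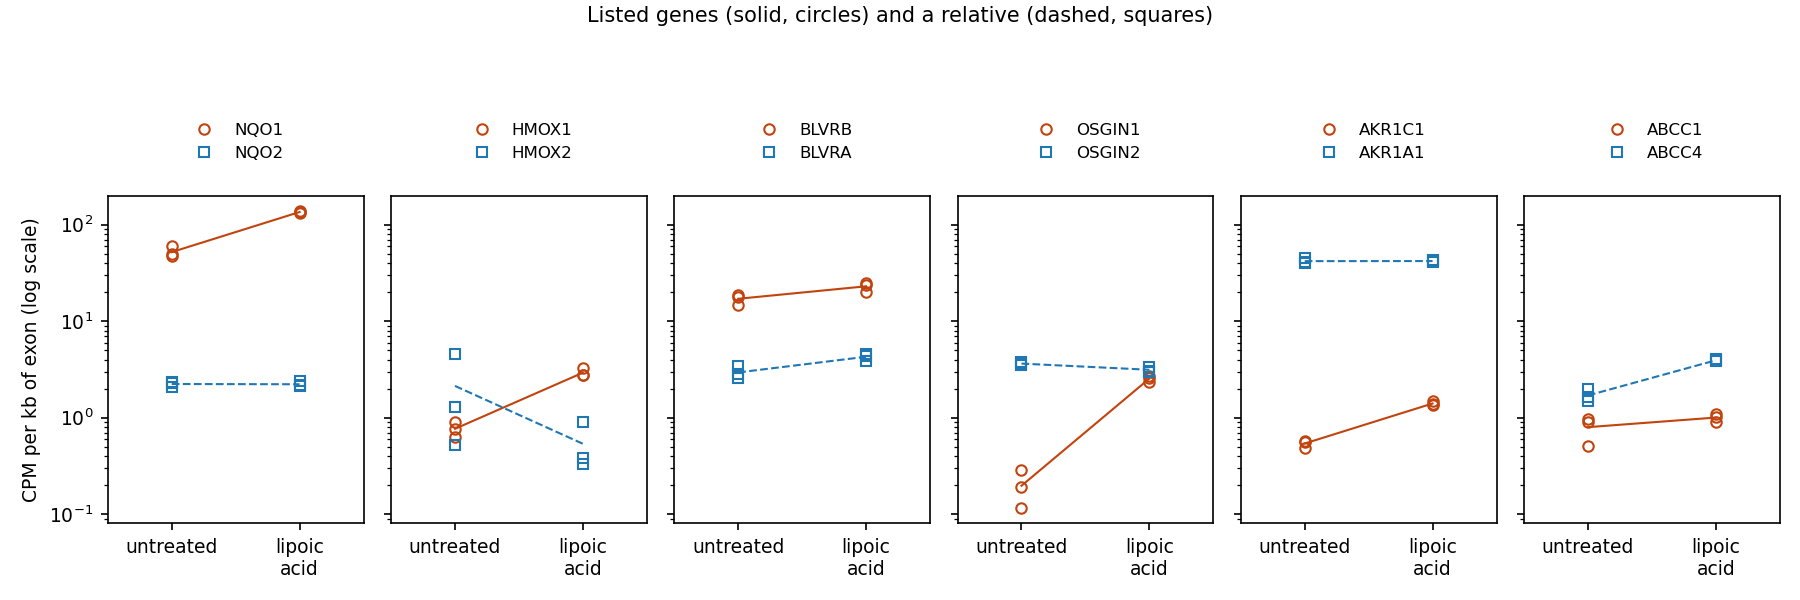
CPM per kilobase of exon (vertical axis, log scale) in the untreated and lipoic acid libraries for 6 of the 10 genes (red circles, solid line through the means) and a relative of each (blue squares, dashed line). NQO1, HMOX1, OSGIN1 and AKR1C1 climb while NQO2 and AKR1A1 stay level within their spread, and the 3 untreated HMOX2 points are spread widely.

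Of the 11 drug and conjugate exporters tested 3 rose, 1 fell and 7 did not pass (median log2 fold change 0.26), against 24.2% and 23.3% of all tested genes. Of the 3 that rose, ABCC3 and ABCB1 passed the filter on low counts only through the lipoic acid libraries, so the count and median are a description. ABCC4, which exports conjugates and cyclic nucleotides, rose 2.31-fold, from 14.7 ± 2.13 to 33.9 ± 0.845 CPM (edgeR adjusted p = 2.69e-05), and ABCC3, an exporter of glucuronides and bile salts, had 6, 1 and 17 counts untreated and 204, 188 and 264 with lipoic acid (ratio 21.1, 95% exact binomial interval 13.6 to 34.6; edgeR adjusted p = 0.000155). Without untreated replicate 3 the fitted rise of ABCC3 was 50.7-fold, against 22.0-fold with all libraries. ABCG2, a drug exporter of stem cells, fell 1.99-fold, from 5.82 ± 0.664 to 2.92 ± 0.148 CPM (edgeR adjusted p = 0.00265). ABCB1, the P-glycoprotein pump, had 3 untreated counts, even counts halved, and 49 with lipoic acid (ratio 22.1, interval 7.12 to 111), and its edgeR call (adjusted p = 0.0133) was lost without untreated replicate 3, without lipoic acid replicate 2 and in the 4 libraries of even counts.

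Of the relatives of the AKR1C genes, 2 had few or no untreated counts, and passed the filter on low counts only through the lipoic acid libraries. AKR1D1, the steroid reductase of bile acid synthesis, had no count in any untreated library and 90, 84 and 100 counts with lipoic acid, at least 62.1-fold higher against a floor of 3 counts over the untreated group (0.0393 CPM). AKR1C4, the hepatic member of the AKR1C cluster, had 3 untreated counts, even counts halved, all in replicate 1, and 46 with lipoic acid, a ratio of 20.7 with an interval of 6.66 to 104. The fitted rise of AKR1C4 was 11.8-fold (edgeR adjusted p = 0.0107) and, among the 4 even-count libraries, 4.25-fold (0.0988), which did not pass. Without untreated replicate 1 its untreated counts are all 0, and the fitted value (log2 7.79) is no bound.

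Transcripts of hepatic and endoderm cells, in which AKR1C4, AKR1D1 and ABCC3 are well known, also differed between the groups. The summed level of 13 such markers was 32.5, 41.5 and 29.3 CPM in untreated replicates 1 to 3 and 171, 256 and 178 CPM in lipoic acid replicates 1 to 3. Of the 11 tested 10 rose and none fell, against 24.2% and 23.3% of all tested genes. The list was low in untreated libraries, so this count is a description. AFP, alpha-fetoprotein, was 10.3-fold higher at 60.1 ± 15.1 CPM, while albumin (ALB) had 1 count untreated and 16 with lipoic acid, even counts halved. Lipoic acid replicate 2, the highest for these markers, was also the highest for NQO1, HMOX1, AKR1B10, AKR1C2, AKR1C3 and EPHX1. It was not for BLVRB, OSGIN1, AKR1C1 or ABCC1, and NQO1 ranged only from 426 to 452 CPM among the lipoic acid libraries. Untreated replicate 2, the highest of its group for the markers, was also the highest for NQO1, BLVRB, AKR1B10, AKR1C1, AKR1C3 and EPHX1. It was the lowest for HMOX1 and AKR1C2, and in the middle for OSGIN1 and ABCC1. The 10 epithelial markers summed to 298 to 329 CPM untreated and 463 to 534 CPM with lipoic acid, with GRHL2 at 0 in every library. Of the 8 epithelial markers tested 6 rose and 1 fell, against 24.2% and 23.3% of all tested genes. KRT8 was 2.28-fold higher, CLDN7 fell 1.41-fold (edgeR adjusted p = 0.000426), and EPCAM was at 6.32 and 5.45 CPM (edgeR adjusted p = 0.444). CLDN7 and EPCAM were picked after their values were seen. The part of such cells in the levels of the 10 genes was not tested.

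Macrophages are known to express HMOX1 and red cells BLVRB, and their markers were measured as well. Of 12 macrophage and blood markers 5 were at 0 in every library (PTPRC, SPN, CD68, SPI1 and AIF1). Among the 5 tested none rose and 2 fell, against 24.2% and 23.3% of all tested genes. LYZ and TYROBP, detected but not tested, had 2 and 12 counts untreated and 21 and 16 with lipoic acid, even counts halved. The LYZ ratio was 14.2 (95% exact binomial interval 3.47 to 125) and that of TYROBP 1.80 (0.80 to 4.17). The list summed to 296 to 312 CPM untreated and 241 to 268 CPM with lipoic acid, most of it LAPTM5. Of 14 erythroid markers 7 were at 0 in every library, among them HBA1, HBA2 and HBB, and the list summed to 74.6 to 87.3 and 71.2 to 94.9 CPM, nearly all of it EPOR. Among the 2 erythroid markers tested 1 rose and none fell, against the same shares of all tested genes. With even counts halved, HBZ and ALAS2, not tested, had 0 counts untreated and 14 and 15 with lipoic acid. HBG2 and KLF1, not tested either, had 21 and 17 counts untreated and 0 with lipoic acid. The 9 megakaryocytic markers were higher with lipoic acid in sum (16.0 to 17.0 and 44.9 to 54.6 CPM). Among the 6 tested 4 rose and 1 fell, against the same shares of all tested genes. PPBP and TUBB1 were at 0, and SELP, also an endothelial gene, was the highest of those called. The 11 mesenchymal markers summed to 1965 to 2593 and 1496 to 2045 CPM. Of these 11, all tested, 1 rose and 6 fell (median log2 fold change -0.41), against 24.2% and 23.3% of all tested genes.

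Of 13 regulators of NRF2 activity 6 rose and 1 fell (median log2 fold change 0.28), against 24.2% and 23.3% of all tested genes. SQSTM1, the autophagy receptor that captures KEAP1, rose 1.62-fold, from 33.8 ± 0.661 to 54.8 ± 3.24 CPM. The small MAF genes MAFF and MAFG, whose products pair with NRF2, rose 1.62-fold and 1.47-fold, and BACH1, the repressor that competes for the same elements at HMOX1, rose 1.35-fold (highest edgeR adjusted p of these 4 genes 0.000808). NFE2L2, which encodes NRF2, was at 128 ± 7.57 and 133 ± 5.99 CPM (adjusted p = 0.55) and KEAP1 at 55.6 ± 7.23 and 65.4 ± 5.08 CPM (adjusted p = 0.0772); both were picked after their values were seen.

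Of 15 tested NRF2 targets outside the 10 genes, 9 rose and none fell in edgeR, against 24.2% and 23.3% of all tested genes. The counts were the same at an unadjusted p under 0.05, in DESeq2 and in limma voom. The median log2 fold change was 0.58. The 9 that rose include SLC7A11, TXNRD1 and GCLM of thiol metabolism, at 8.83-fold, 3.42-fold and 2.18-fold. They also include PGD, which makes NADPH in the pentose phosphate pathway, at 1.78-fold (177 ± 7.08 to 315 ± 9.59 CPM). SRXN1, a sulfiredoxin, had no count in any library. On that strand another annotated gene overlaps 0.85 of the SRXN1 exons, and how reads in both were counted is not given in the sources used here.

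Of 19 conjugation enzymes tested, 6 rose and 6 fell (median log2 fold change -0.05), against 24.2% and 23.3% of all tested genes. Among them SULT1A1, a phenol sulfotransferase, rose 2.49-fold to 12.7 ± 0.685 CPM, MGST1, a microsomal glutathione transferase, 2.47-fold to 12.8 ± 1.37 CPM, and GSTA2 3.97-fold to 5.23 ± 1.63 CPM, whereas MGST3 fell 1.47-fold to 148 ± 4.75 CPM. The highest edgeR adjusted p of these 4 was 0.000549.

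Among 15 other reductases and aldehyde dehydrogenases 6 rose and 3 fell (median 0.02), against 24.2% and 23.3% of all tested genes. ALDH1A1, a retinal dehydrogenase, had 0, 2 and 4 counts untreated and 268, 292 and 232 with lipoic acid (ratio 89.2, 95% exact binomial interval 40.6 to 244), and passed the filter through the latter alone. PTGR1, a reductase of prostaglandins and enals, rose 1.58-fold and ALDH2, the mitochondrial acetaldehyde dehydrogenase, 1.33-fold, and AKR7A2, an aldehyde reductase, fell 1.82-fold.

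Of 14 heme genes 2 rose and 4 fell (median -0.03), against 24.2% and 23.3% of all tested genes. Of the 4 that fell, CPOX, picked after its values were seen, was called in 6 of 16 other settings, and HMOX2 in 8. FTL, the ferritin light chain, rose 1.24-fold and UROS, uroporphyrinogen synthase, fell 1.58-fold. ALAS1, the first enzyme of heme synthesis, fell 1.14-fold (edgeR adjusted p = 0.0332), a call lost on leaving out untreated replicate 1 or any 1 of the lipoic acid libraries.

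The genes of the aryl hydrocarbon receptor and P450 group belong to the other inducible route to NQO1. Of the 11 tested, 3 rose and 2 fell (median -0.18), against 24.2% and 23.3% of all tested genes. AHRR, the repressor of that receptor, rose 2.20-fold and CYP2U1, a fatty acid hydroxylase, 2.45-fold. CYP20A1 rose 1.25-fold, and CYP2S1 fell 1.17-fold. The CYP20A1 call was lost in the 4 even-count libraries and on leaving out untreated replicate 3 or lipoic acid replicate 1 or 2. That of CYP2S1 was lost on leaving out untreated replicate 1 or lipoic acid replicate 2, and when the trend with GC content and length was removed (adjusted p = 0.452). CYP1A1, the best-known target of the receptor, was at 3.98 ± 0.767 and 2.69 ± 0.197 CPM (adjusted p = 0.0768), and was picked after its values were seen.

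**Figure D5:**
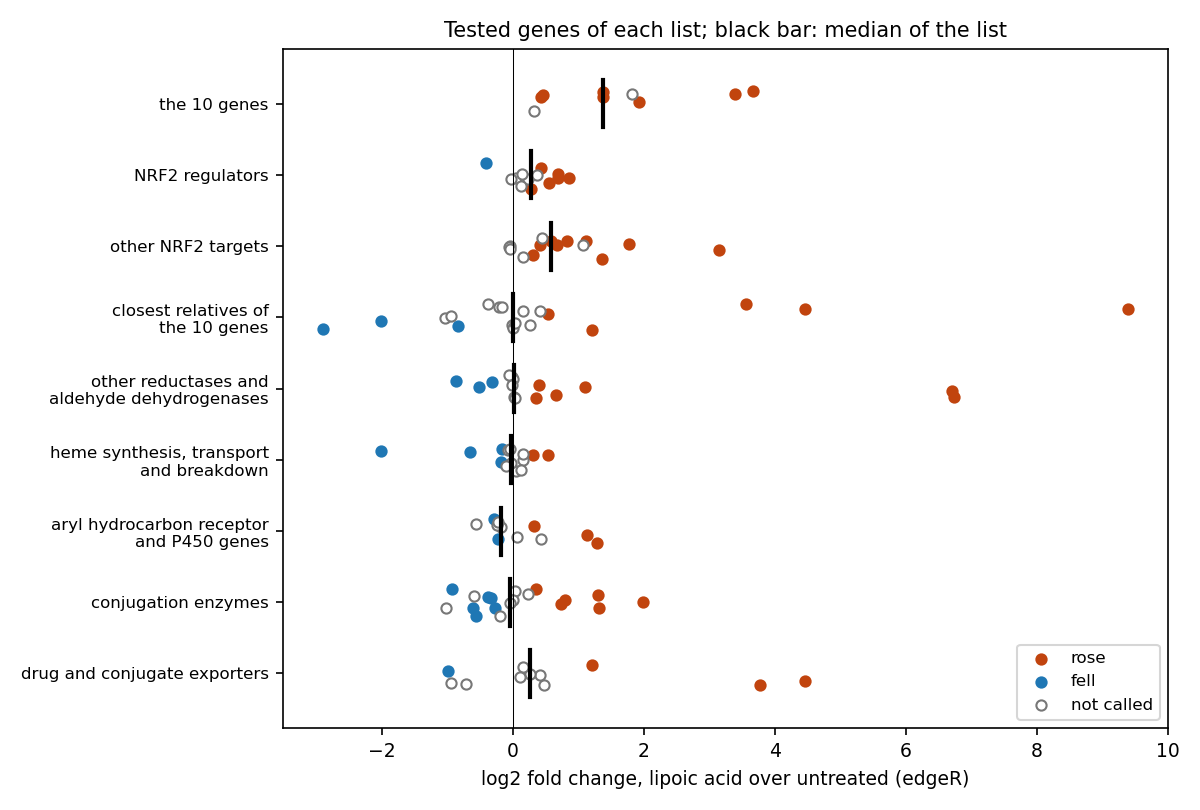
Fitted log2 fold change (horizontal axis, lipoic acid over untreated) of the tested genes of each list, with the median of the list as a black bar. The median is 1.38 for the 10 genes, 0.58 for other NRF2 targets and 0.28 for NRF2 regulators, and lies between -0.18 and 0.26 for the other 6 lists.

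The genes next to the 10 on the chromosome were examined too. Of the 16 nearest tested protein-coding neighbours outside the 10, 4 rose, 5 fell and 7 did not pass, near the shares over all tested genes (24.2% and 23.3%). AKR1C4, which rose, passed the filter on low counts only through the lipoic acid libraries, and AKR1B15, which fell, only through the untreated ones. For NQO1 both neighbours rose: NFAT5, 2330 bases away, from 5.42 to 12.8 CPM (edgeR adjusted p = 0.00049) and NOB1 from 16.0 to 22.1 CPM (0.00504). The neighbours of HMOX1, TOM1 and MCM5, did not pass, and those of OSGIN1 went opposite ways, MLYCD lower (11.5 and 7.92 CPM) and MBTPS1 higher (143 and 170 CPM).

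Over the 6 libraries the genes of at least 5 CPM closest to NQO1 in log2(CPM + 1) were ADPRM, TIMM10B (both Pearson r = 0.998) and SEC63 (0.998), and those closest to HMOX1 were PIKFYVE, SLC33A1 (both 0.999) and ZNF563 (0.999). With 2 groups of 3 libraries such values mostly reflect the difference between the groups, and 104 genes for NQO1 and 194 for HMOX1 had r over 0.99.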

How the data were processed

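Raw counts per gene symbol were deposited by the authors. HISAT2, featureCounts and DESeq2 on hg38 are named, per the submitters' processing notes, and versions, options, annotation and strand setting are not given in the sources used here. Counts were analysed as deposited with R 4.3.3, edgeR 4.0.16 (filterByExpr, TMM, quasi-likelihood F test, group as the only term, Benjamini-Hochberg adjustment over 13780 genes) and, as other settings, DESeq2 1.42.0 and limma 3.58.1. The SE of a log2 fold change is the fold change over the square root of F. Depth of 30041494 to 41351951 counts puts a floor of 3 counts over a group at 0.0393 CPM (untreated) and 0.053 CPM (lipoic acid), even counts halved. Floors and intervals cover counting error only, since the cDNA was amplified and no molecular barcodes are mentioned.

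The 10 genes, the lists and the tests were chosen with earlier results of these data known, and the within-library ratios after the levels were seen. Named genes are the 10, up to 4 called genes of lowest p per list, close relatives and the most abundant called marker per list; others are marked. Positions, exons and transcripts come from GENCODE v29 (GRCh38; 99.36% of symbols found) and start windows from RefSeq. The edgeR fit was tested on simulated data.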

Additional observations from a re-analysis of the deposited data

How the results depend on the processing

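Of the 10 genes, NQO1, HMOX1, BLVRB, OSGIN1, AKR1B10 and AKR1C1 kept their direction and their call in all 16 other settings (other scalings, filters and tests, a replicate block, each library left out, even counts halved, the 4 libraries of even counts, and a trend with GC content and length removed). AKR1B10 passed the filter on low counts only through the lipoic acid libraries, so its calls are a description. The log2 fold change of AKR1C2, not called as reported, was 1.83 and called without the filter, 1.83 with a stricter filter (1 CPM in every library of 1 group), 1.85 in DESeq2, 2.53 in limma voom and 1.93 in the 4 libraries of even counts, and ranged from 1.28 to 2.81 with 1 library left out. That of AKR1C3 ranged from 0.37 to 0.54 with 1 library left out, uncalled in 5 of 6. That of ABCC1 was 1.00 and called in the 4 libraries of even counts. For each of these the cause was not tested. The summed AKR1C level kept a log2 ratio of 0.88 to 1.04. Of the 104 tested genes of the lists, 36 rose and 19 fell, against 24.2% and 23.3% of all tested genes. Some of these, among them AKR1D1 and AKR1B15, passed the filter on low counts through 1 group alone, so these counts are a description. With 1 library left out the falls numbered 10 to 21, the lowest without lipoic acid replicate 3.

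Libraries of the same number correlated in their deviations from the group mean at 0.117, 0.0982 and 0.114, each library best with its own number, which is a hint from the data and not from the design. With the replicate block 3354 genes rose and 3203 fell, against 3329 and 3205, and the same 7 of the 10 genes rose. Depth limits EPHX1, AKR1B10, AKR1C2 and OSGIN1, each at 32 counts or fewer in every untreated library.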
